A study of Mus musculus with 8 samples.

Results

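Fatty acids that reach the liver are released from circulating lipoproteins by lipases, cross the plasma membrane with the help of carriers, are bound in the cytosol by fatty acid-binding proteins and are trapped as acyl-CoA by synthetases before they are oxidized or stored. This chain is known to feed triglyceride storage in the fatty liver. The genes described here were chosen by name for these steps: lipoprotein lipase (Lpl), the scavenger receptor Cd36, the binding proteins Fabp1, Fabp2 and Fabp4, the transport proteins Slc27a2 and Slc27a4, and the long-chain acyl-CoA synthetases Acsl1, Acsl3 and Acsl5. Of these 10 genes, 8 had a row of the array table that names that gene alone, each by a single row, among 19938 genes in all. Acsl1 was not analysed here, and the single row for Acsl3 also names Utp14b, so that no value is given for it.

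Total liver RNA of 8 female C57B1/6J mice, ovariectomized (OVX) at 7 weeks of age as a model of menopause, was hybridized to Affymetrix Mouse Gene 1.0 ST arrays, 1 mouse per array. All mice received a high fat diet (HFD) from 1 week after surgery for 3 months, in 4 of them as HFD alone and in the other 4 with added freeze-dried white button mushroom powder (HFD+WBM). Every mouse lacked ovaries, and so had estrogen only from other tissues, and received fat-rich food. The comparison is thus of the WBM diet within this model. By the paper's account that diet also held less corn starch than HFD. Food intake was matched by pair feeding, and the mice were fasted before sacrifice. Arrays cover 4 of the 8 mice in each diet group. The values are log2 expression values, on which a difference of 1 is a 2-fold change, and values of different genes are not set against each other because each gene has its own probes.

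The arrays had medians from 7.04 to 7.22 over all rows and correlated with each other at 0.920 to 0.973, and HFD replicate 3 lay farthest from the others. The 10 hepatocyte markers measured ran from 11.50 to 14.22 on every array, none of them passed p under 0.05 between the diets, and their mean was 13.26 to 13.41 with HFD and 13.31 to 13.40 with HFD+WBM. RNA of whole liver was measured, in which fewer cells of a type and less RNA per cell cannot be told apart.

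Of the 8 genes, Fabp2, Fabp4 and Lpl were lower in liver when WBM was added to HFD, and none was higher. Fabp2 was 1.95-fold lower, Fabp4 1.89-fold lower and Lpl 1.72-fold lower, at p under 0.05 before adjustment from limma, a threshold that 6.90% of all genes passed as lower and 4.85% as higher. The estimates for Cd36, Acsl5 and Slc27a4 were below 0 without passing, those for Fabp1 and Slc27a2 lay close to 0, and the median log2 change was -0.39 over the 8 genes and 0.01 over all genes tested. For Fabp2 and Fabp4 the highest HFD+WBM value lay below the lowest HFD value, a separation found in that direction for 5.02% of all genes, and no gene of the group was separated in the other direction (3.21% of all genes). None of the 8 reached the study's 2-fold threshold, which together with p under 0.05 was passed downward by 0.497% and upward by 0.266% of all genes. After Benjamini-Hochberg adjustment over all genes limma called none of the 8 and none of the 19938, of which 2341 had p under 0.05 before adjustment, and 139 when its prior variance depended on signal level, Fabp2 among them. With 4 mice against 4 an exact permutation test cannot give a two-sided p below 0.029.

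**Figure D1:**
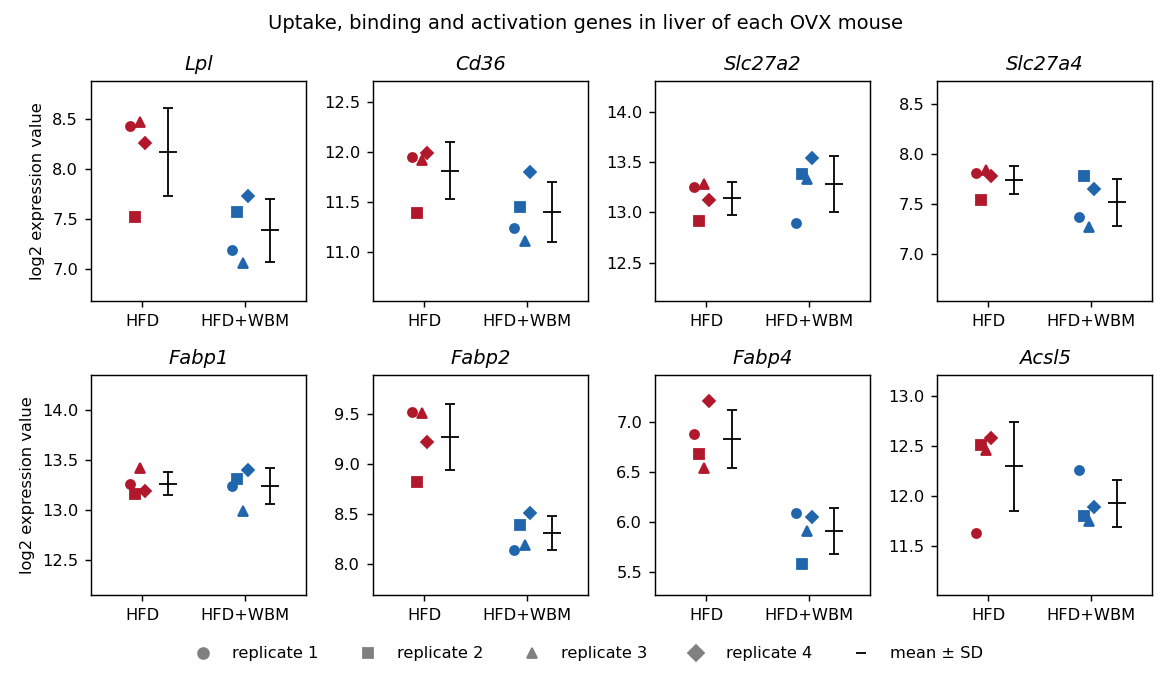
Log2 expression values (vertical axes, each spanning the same number of log2 units) of the 8 genes in every mouse (red, HFD; blue, HFD+WBM), with a marker shape per replicate number and the mean ± SD of 4 mice beside the points. The groups do not overlap for Fabp2 and Fabp4, overlap through HFD replicate 2 for Lpl and Cd36, and overlap over most of their range for Fabp1.

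The fatty acid-binding proteins are small cytosolic proteins that carry fatty acids through the cell. Fabp1 is the abundant form of hepatocytes, Fabp2 the form known from the intestine, and Fabp4 the form known from adipocytes, macrophages and capillary endothelium. For Fabp2 (probe set 10495820) the log2 values were 9.52, 8.82, 9.51 and 9.22 in HFD replicates 1 to 4 and 8.14, 8.39, 8.19 and 8.51 in HFD+WBM replicates 1 to 4. The lowest HFD mouse thus lay above the highest HFD+WBM mouse. The means were 9.27 ± 0.33 and 8.31 ± 0.17 (SD, n = 4 each), a log2 change of -0.96 with a standard error of 0.19 and a 95% interval from -1.39 to -0.53. Limma gave p = 0.00062 before and 0.35 after adjustment, and the exact permutation test gave 0.029, its smallest value. When the prior variance of limma was allowed to depend on signal level, the adjusted p was 0.0045 for Fabp2, against 0.11 for Fabp4 and 0.097 for Lpl. Over all settings tried it ranged from 0.0045 to 0.57 for Fabp2.

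For Fabp4 (probe set 10497265) the values were 6.88, 6.68, 6.54 and 7.21 in the HFD mice and 6.09, 5.58, 5.91 and 6.05 in the HFD+WBM mice. All 4 HFD+WBM mice again lay below all HFD mice. The means were 6.83 ± 0.29 and 5.91 ± 0.23 (SD, n = 4 each), a log2 change of -0.92 with a standard error of 0.19, a 95% interval from -1.35 to -0.49, limma p = 0.00086 before and 0.35 after adjustment and an exact permutation p of 0.029. An offset of 64 before the log reduced its change to -0.52, which still passed p under 0.05 before adjustment.

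Fabp1 (probe set 10538965), which also binds bile acids and acyl-CoA, did not pass. Its values were 13.26, 13.16, 13.42 and 13.19 with HFD and 13.24, 13.31, 12.99 and 13.40 with HFD+WBM. The ranges of the groups overlapped over most of their width, and the lowest and the second highest of all mice were both fed with HFD+WBM. The log2 change was -0.03 with a 95% interval from -0.36 to 0.31, and its sign turned to 0.04 with weights per array.

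Because these genes belong to families, the difference between 2 members on the same array was also compared between the diets, for all 4 pairs within a family that could be formed. A scaling of whole arrays cancels in such a difference. The pairs were chosen after values were seen, so their p-values are descriptive and give no independent support. Fabp2 and Fabp4 were each separated alone and Fabp1 scarcely changed, so their differences from Fabp1 were likely to separate too. Fabp2 minus Fabp1 was -4.35 to -3.74 with HFD and -5.10 to -4.79 with HFD+WBM, so that Fabp2 fell relative to Fabp1 by 0.94 on the log2 scale (exact permutation p = 0.029, two-sided, and 0.038 after adjustment over the 4 pairs). Fabp4 minus Fabp1 was -6.89 to -5.98 with HFD and -7.72 to -7.07 with HFD+WBM, a difference of -0.89 with the same exact p. This p became 0.057 after 64 was added before the log (-0.49), and also when HFD+WBM replicate 1, 2, 3 or 4 was left out. Without a mouse the groups stayed apart, but the test had fewer divisions, into groups of unequal size. The difference was -1.04 to -0.74 when single mice were left out. Fabp4 minus Fabp2 differed between the diets by 0.04 (exact permutation p = 0.89), a value whose sign turned under quantile normalization. The 4 HFD mice ran from -2.98 to -2.01 and the 4 HFD+WBM mice from -2.81 to -2.05 in this last difference, so that the groups overlapped throughout.

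**Figure D2:**
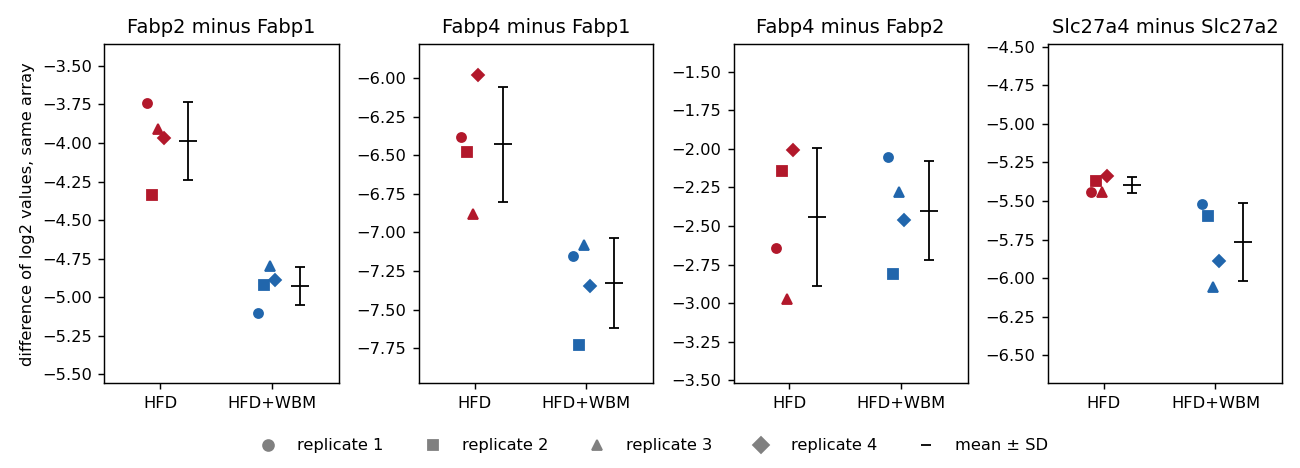
Difference of the log2 values of 2 genes on the same array (vertical axes, each spanning the same number of log2 units) in every mouse (red, HFD; blue, HFD+WBM), beside the mean ± SD of 4 mice. The absolute position of each axis depends on the probes and carries no meaning, and a lower HFD+WBM group means that the first gene fell more than the second, as for Fabp2 minus Fabp1 by 0.94.

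To set a binding protein that was lower beside a relative that did not pass, the 250 bases upstream of the annotated start of Fabp2 and of Fabp1 are given, 5′ to 3′ on the plus strand of GRCm38.p6, from RefSeq, which held a window for 6 of the 8 genes and none for Lpl and Fabp4 in the table used. Capitals mark a match on either strand to a direct repeat of AGGNCA (N, any base) with a single base between the copies, an arrangement known to bind PPAR with RXR, and HNF4.
Fabp2 (chr3:122894822-122895071): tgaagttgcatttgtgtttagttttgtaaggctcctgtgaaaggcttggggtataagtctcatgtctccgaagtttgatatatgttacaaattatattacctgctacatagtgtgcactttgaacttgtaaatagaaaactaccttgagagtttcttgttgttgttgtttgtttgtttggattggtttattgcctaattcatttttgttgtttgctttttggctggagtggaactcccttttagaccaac
Fabp1 (chr6:71199629-71199878): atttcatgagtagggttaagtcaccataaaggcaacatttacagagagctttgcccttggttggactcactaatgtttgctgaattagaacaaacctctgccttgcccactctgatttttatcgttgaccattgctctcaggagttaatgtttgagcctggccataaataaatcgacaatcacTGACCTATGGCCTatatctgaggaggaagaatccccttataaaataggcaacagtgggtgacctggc
The Fabp1 window holds 1 match, from -67 to -55 relative to the start, and the Fabp2 window holds none. The windows of Cd36, Slc27a2, Slc27a4 and Acsl5, genes that did not pass either, also hold none. Of 32851 upstream windows of this length, 0.338% hold a match. The shorter element AGGTCA, which can lie within the longer motif, was matched at 2 places in the Fabp1 window, at 1 place each in those of Cd36 and Slc27a2, and in 14.0% of all windows. The motif TATAAA lies in the Fabp1 window from -30 to -25 and in 12.4% of all windows, and was not found in that of Fabp2. These matches describe letters in the windows and not binding.

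Lipoprotein lipase, encoded by Lpl, hydrolyses the triglycerides of circulating lipoproteins and is known to be low in adult hepatocytes and present in liver macrophages. For Lpl (probe set 10572130) the log2 values were 8.43, 7.52, 8.47 and 8.26 in HFD replicates 1 to 4 and 7.19, 7.57, 7.06 and 7.73 in HFD+WBM replicates 1 to 4. All HFD+WBM mice lay below HFD replicates 1, 3 and 4, with HFD replicate 2 in their range. The means were 8.17 ± 0.44 and 7.39 ± 0.32 (SD, n = 4 each), a log2 change of -0.78 with a standard error of 0.25, a 95% interval from -1.34 to -0.23, limma p = 0.011 before and 0.37 after adjustment, and an exact permutation p of 0.086. It stayed past p under 0.05 before adjustment in limma without any single mouse.

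CD36 takes up long-chain fatty acids and modified lipoproteins and is known to rise in fatty livers. For Cd36 (probe set 10528207) the values were 11.95, 11.39, 11.92 and 11.99 with HFD and 11.24, 11.45, 11.11 and 11.80 with HFD+WBM. As for Lpl, HFD replicate 2 lay among the HFD+WBM mice and the other HFD mice above all of them. The log2 change was -0.41 with a 95% interval from -0.87 to 0.05 and p = 0.075 before adjustment in limma, and the exact permutation p was 0.086. Without HFD replicate 2 it was -0.55 and passed p under 0.05 before adjustment in limma (adjusted p = 0.39), as it did without HFD+WBM replicate 4 (-0.55, adjusted p = 0.49). With all mice it also passed with an offset of 64, in the brighter 50% of genes and with the prior variance dependent on signal level (adjusted p = 0.27, adjusted p = 0.24 and adjusted p = 0.21), at log2 changes of -0.41 to -0.40.

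Markers of macrophages were lowest within each diet in the same mice as Lpl and Cd36, but not highest in the same ones. Of 16 macrophage markers, those of Kupffer cells included, 12 passed as lower with WBM and none as higher at p under 0.05 before adjustment, among them C1qc, a complement component made by macrophages (1.74-fold lower), Cd68, a lysosomal glycoprotein (1.68-fold lower), Lyz2, the macrophage lysozyme (1.69-fold lower), and Clec4f, a receptor of Kupffer cells (1.44-fold lower). The mean of the 16 was 9.37, 8.84, 9.38 and 9.17 in HFD replicates 1 to 4 and 8.36, 8.87, 8.32 and 8.75 in HFD+WBM replicates 1 to 4. The lowest HFD mouse in this mean was thus replicate 2, as for Lpl and Cd36, and the lowest HFD+WBM mouse was replicate 3 in all 3 measures. Fabp1 and Slc27a4 were lowest in these same mice. The highest HFD+WBM mouse was replicate 2 in the marker mean and replicate 4 for Lpl and Cd36. The part of these cells in the values of Lpl, Cd36, Fabp2 and Fabp4 was not tested. By likeness of profile, taken as the root-mean-square distance between log2 values centred per gene over the 8 arrays, the 5 genes closest to Lpl among 9968 genes were Slc15a3, Cybb, C3ar1, Cd5l and Ly86, at distances of 0.11 to 0.14, of which Cd5l is on the macrophage list. Those closest to Fabp2 were Lyz2, C3ar1, Paqr9, C1qc and Hspa13, at 0.12 to 0.16, with Lyz2 and C1qc on that list. Those closest to Fabp4 were Krt18, S100a10, Dck, Lrrc32 and Exosc9, at 0.21 to 0.23, none of which is on a list used here. The distance includes the difference between the diets. Neighbours of genes taken as lower with WBM are therefore bound to be mostly lower too, and such likeness does not tell cell types apart.

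**Figure D3:**
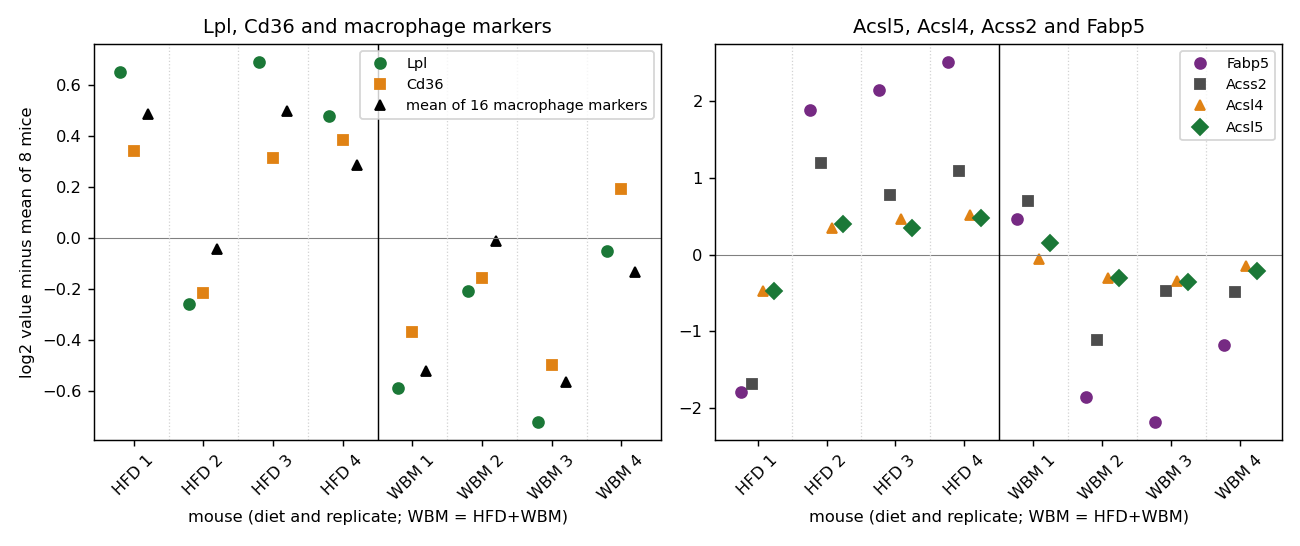
Log2 value of each gene minus its mean over the 8 mice (vertical axis), per mouse, with the HFD mice left of the line and the HFD+WBM mice right of it. On the left, Lpl, Cd36 and the mean of 16 macrophage markers are high in HFD replicates 1, 3 and 4 and lowest within the HFD+WBM group in replicate 3, and on the right Acsl5, Acsl4, Acss2 and Fabp5 are low in HFD replicate 1 and highest within the HFD+WBM group in replicate 1.

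Fabp4, Lpl and Cd36 are also genes of adipocytes, Fabp4 and Cd36 also of capillary endothelium, and Fabp2 is a gene of the gut. Of 7 adipocyte markers none passed in either direction, with a list mean of 5.86 to 6.91 with HFD and 6.25 to 7.01 with HFD+WBM, and Adipoq, the adiponectin gene, was 4.72 in HFD replicate 1, 5.44 to 5.5 in the other HFD mice and 5.06 to 6.28 with HFD+WBM. The 3 with the smallest p were Aoc3, an amine oxidase (log2 change 0.35), the resistin gene Retn (-0.61) and Adig (0.72, and -0.20 without HFD replicate 3). Of 12 endothelial markers 3 were lower, Lyve1, a hyaluronan receptor of sinusoidal and lymphatic endothelium (means 8.65 and 7.65), Tek, the receptor TIE2 (8.85 and 8.44), and Cdh5, VE-cadherin (9.17 and 8.65, HFD first in each pair), and the list mean was 8.35 to 8.79 with HFD and 8.09 to 8.52 with HFD+WBM. Leaving out HFD replicate 4 brought that count to 1, as did leaving out replicate 1 or 3 of HFD+WBM. The estimates of 11 of the 12 were below 0, against 9828 of all 19938 genes. Their median log2 change was -0.30, against 0.01 over all genes. Of 6 enterocyte markers none was lower and Sis, sucrase-isomaltase, was higher (1.51-fold), next to Cdx1 (log2 change 0.24) and Vil1 (0.18). The list mean was 7.15 to 7.52 with HFD and 7.44 to 7.65 with HFD+WBM. Group means were 5.16 and 5.76 for Sis and 11.13 and 11.38 for Cdx1 (HFD first). Whether these rows report gut cells was not tested. The call for Sis was lost under quantile normalization, with an offset of 64 (log2 change 0.24 against 0.59) and with the prior variance dependent on signal level. It was also lost with the replicate number as a block, and without HFD replicate 1 or 4 or HFD+WBM replicate 1 or 2 (0.47, 0.57, 0.54 and 0.48). No marker of these lists had a value at 0, and these values carry no detection limit. The part of endothelial cells in the results was not tested either.

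The transport proteins of the Slc27a family have acyl-CoA synthetase activity and act in uptake and activation. Slc27a2, which activates very long-chain fatty acids in liver, was 13.25, 12.91, 13.28 and 13.12 with HFD and 12.89, 13.38, 13.33 and 13.54 with HFD+WBM. The groups overlapped, and the log2 change was 0.14 with a 95% interval from -0.25 to 0.54. Slc27a4, the transporter known from the intestine, was 7.81, 7.54, 7.84 and 7.78 with HFD and 7.37, 7.78, 7.27 and 7.65 with HFD+WBM, with overlapping groups and a log2 change of -0.23 (95% interval from -0.60 to 0.14). On the same arrays, Slc27a4 minus Slc27a2 was -5.44 to -5.34 with HFD and -6.06 to -5.52 with HFD+WBM, a difference of -0.37 (exact permutation p = 0.029, two-sided, and 0.038 after adjustment over the 4 pairs). The groups did not overlap in this difference although neither gene passed alone, and the difference was -0.45 to -0.27 when single mice were left out. This pair too was chosen after values were seen. The exact permutation p of the difference became 0.086 with an offset of 64, and also when HFD replicate 1, 2, 3 or 4 was left out. Without a mouse the groups stayed apart, but the test had fewer divisions, into groups of unequal size.

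Acsl5 is a long-chain acyl-CoA synthetase of mitochondria and endoplasmic reticulum. Its log2 values were 11.63, 12.51, 12.46 and 12.58 in HFD replicates 1 to 4 and 12.26, 11.80, 11.75 and 11.89 in HFD+WBM replicates 1 to 4. HFD replicate 1 was the lowest of all 8 mice, while the other 3 HFD mice lay above every HFD+WBM mouse. With all mice the log2 change was -0.37 (95% interval from -0.90 to 0.16) with p = 0.15 before adjustment in limma and an exact permutation p of 0.20. Without HFD replicate 1 it was -0.59 with a standard error of 0.17 and passed p under 0.05 before adjustment in limma (adjusted p = 0.42). With all mice it also passed with an offset of 64 and with the prior variance dependent on signal level (adjusted p = 0.35 and adjusted p = 0.31), at the same log2 change of -0.37.

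The extreme mice within a diet group differed from gene to gene. Among the HFD mice, replicate 2 was the lowest for 6 of the 8 genes (Cd36, Lpl, Fabp1, Fabp2, Slc27a2 and Slc27a4), and the others were Acsl5, lowest in replicate 1, and Fabp4, lowest in replicate 3. Among the HFD+WBM mice, replicate 3 was the lowest for 5 (Cd36, Lpl, Fabp1, Slc27a4 and Acsl5) and replicate 4 the highest for 5 (Cd36, Lpl, Fabp1, Fabp2 and Slc27a2).

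Other genes of the same steps were taken from 3 lists, together with a list of transcription factors known to act on them. Of 53 genes measured, 3 were lower and 2 were higher at p under 0.05 before adjustment, 48 did not pass, and the median log2 change was 0.03. The shares of 5.66% lower and 3.77% higher lay near those of all genes (6.90% and 4.85%), so that these counts are no result about the lists, and the genes named from them are described singly. Of 14 other members of the 3 families, 1 was lower and none was higher (median 0.18). This was Fabp5, the epidermal form also known from macrophages, with log2 values of 5.40, 9.06, 9.33 and 9.69 in HFD replicates 1 to 4 and 7.64, 5.33, 5.01 and 6.01 in HFD+WBM replicates 1 to 4. HFD replicate 1 lay among the low HFD+WBM mice, and HFD+WBM replicate 1 was the highest of its group. The means were 8.37 ± 1.99 and 6.00 ± 1.17 (SD, n = 4 each), a log2 change of -2.37 with a standard error of 0.93 and limma p = 0.029 before adjustment, with an exact permutation p of 0.086. It lost p under 0.05 without HFD replicate 2, 3 or 4 (-2.14, -2.05 and -1.93) and without HFD+WBM replicate 2, 3 or 4 (-2.15, -2.04 and -2.37). With all mice it lost p under 0.05 in the equal-variance test and with the replicate number as a block. Without HFD replicate 1 the log2 change was -3.36 and without HFD+WBM replicate 1 it was -2.92, and it passed in both cases (adjusted p = 0.36 and adjusted p = 0.42 in limma).

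HFD replicate 1 was also the lowest HFD mouse for Acsl4, an arachidonate-preferring synthetase, at 9.35 against 10.17 to 10.33, and for Acss2, the cytosolic acetyl-CoA synthetase, at 9.91 against 12.37 to 12.78. Neither gene passed with all mice at the settings of the main comparison (log2 change -0.43 and -0.69), while Acsl4 passed p under 0.05 before adjustment with an offset of 64, in the brighter 50% of genes and with the prior variance dependent on signal level (adjusted p = 0.28, adjusted p = 0.25 and adjusted p = 0.26 in limma). Without HFD replicate 1 the log2 change was -0.66 for Acsl4 and -1.36 for Acss2, and both passed p under 0.05 before adjustment in limma (adjusted p = 0.36 and adjusted p = 0.41). These 2 genes were chosen after their values were seen. The bile acid-CoA and fatty acid ligase Slc27a5, chosen in the same way, had a log2 change of 0.15 (95% interval from -0.19 to 0.50).

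Of 13 measured partners of lipolysis and lipoprotein uptake, 2 were higher and none was lower (median log2 change -0.06). Vldlr, the receptor for triglyceride-rich lipoproteins, was 8.58, 8.73, 8.19 and 8.54 in the HFD mice and 9.39, 9.34, 9.15 and 9.52 in the HFD+WBM mice. Every HFD+WBM mouse lay above every HFD mouse, and the gene was 1.79-fold higher on average (log2 change 0.84, standard error 0.16, limma p = 0.00051 before and 0.35 after adjustment, 0.0064 with the prior variance dependent on signal level, exact permutation p = 0.029). Lipg, endothelial lipase, was 1.47-fold higher, passed p under 0.05 before adjustment in limma (adjusted p = 0.42) and had overlapping groups (exact permutation p = 0.11). Its call was lost without any of HFD replicates 1, 3 and 4 and HFD+WBM replicates 2, 3 and 4. With all mice it was lost with array weights, in the equal-variance test and with the replicate number as a block. The other 11 did not pass, among them Gpihbp1, which anchors lipoprotein lipase on capillary endothelium and was chosen after its values were seen (log2 change -0.32, 95% interval from -0.70 to 0.05).

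Of 13 genes of acyl-CoA handling, 2 were lower and none was higher (median log2 change -0.07). Scp2, a peroxisomal thiolase and sterol carrier that also binds fatty acyl-CoA, was 12.72, 12.56, 12.82 and 12.77 with HFD and 12.11, 12.19, 12.24 and 12.27 with HFD+WBM. Its groups did not overlap, and the log2 change was -0.51 with a standard error of 0.13 (limma p = 0.0036 before and 0.37 after adjustment, exact permutation p = 0.029). Acbd3, a Golgi protein with an acyl-CoA-binding domain, was 8.68 to 8.83 with HFD and 8.19 to 8.44 with HFD+WBM, a log2 change of -0.43 with a standard error of 0.13 and no overlap. None of 13 transcription factors passed in limma with all mice and the settings of the main comparison (median log2 change 0.21). The smallest p were those of Rxrb and Rxra, partners of PPAR and LXR (log2 change 0.38 and 0.31, exact permutation p = 0.057 for each), and the log2 change was 0.21 (95% interval from -0.20 to 0.62) for Ppara and -0.12 (from -0.77 to 0.52) for Pparg, which are known regulators of several of the 8 genes and were chosen after their values were seen.

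**Figure D4:**
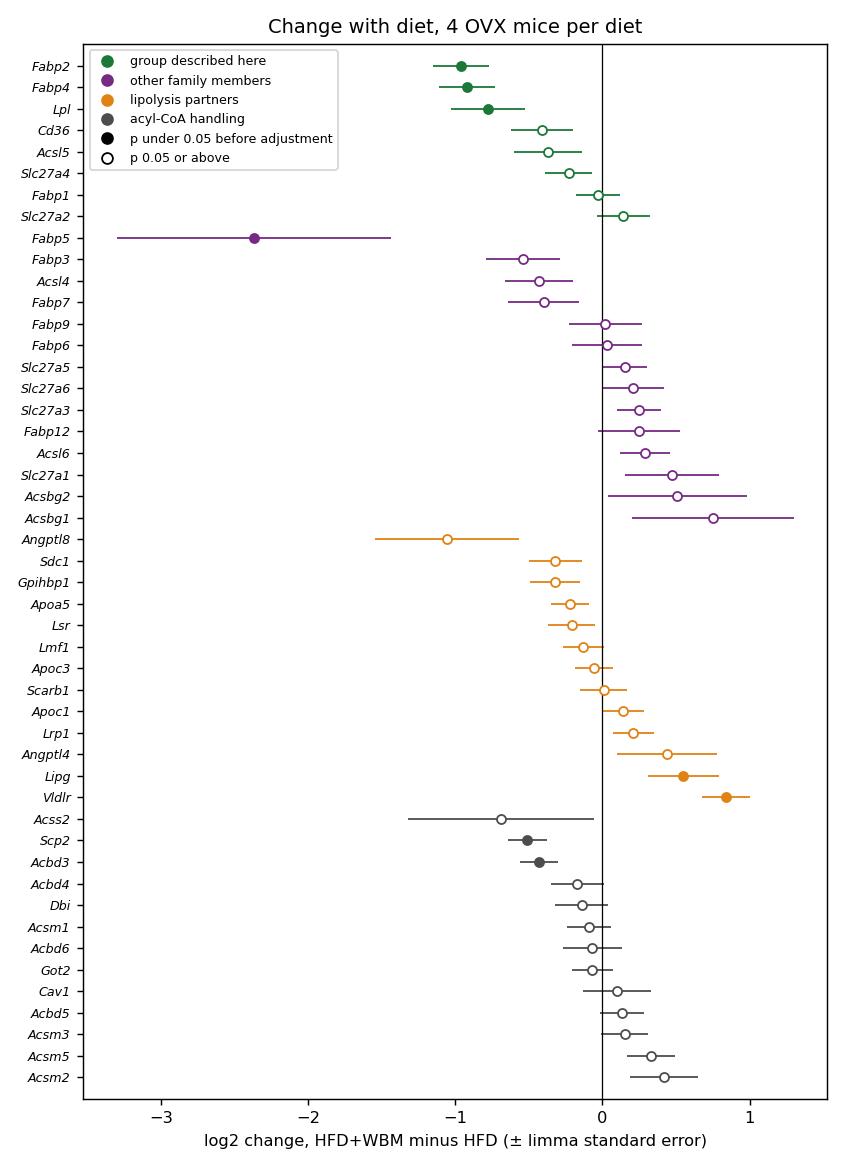
Log2 change of each gene (horizontal axis, HFD+WBM minus HFD, 4 OVX mice per diet) and the limma standard error, for the 8 genes in green, other members of their families in purple, partners of lipolysis in orange and genes of acyl-CoA handling in grey. Filled points have p under 0.05 before adjustment, and Fabp5 is the lowest estimate with a wide error while Vldlr is the highest among filled points.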

How the data were processed

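Arrays of the type Affymetrix Mouse Gene 1.0 ST carried liver RNA of 4 OVX mice on HFD and 4 on HFD+WBM. Diet and replicate number were read from the sample titles. The deposited values are log2 expression values per probe set, which the authors obtained with IterPLIER (Affymetrix Power Tools 1.8.6) after background correction and normalization. Neither an offset before the log nor the normalization between arrays is stated in the sources used here, so that low values have no background limit, and precision is limited by the number of arrays. The protocol speaks of 4 liver specimens per diet, which were taken as 4 mice.

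Of 28944 rows, 21789 name a single gene in the platform annotation, 1621 name several and 5534 are not named there; the row with the highest mean over the 8 arrays stood for each of 19938 genes. A linear model with a single term, diet, was fitted to every gene by limma 3.58.1 (lmFit, eBayes; R 4.3.3), followed by Benjamini-Hochberg adjustment. Called genes had p under 0.05 before adjustment, and the study's thresholds add a 2-fold change. Exact permutation tests used all 70 divisions of the 8 mice, two-sided, and without a mouse all divisions of the remaining mice. The test was checked on simulated data. The genes, the lists and the rule for named genes (every passing gene of a pathway list or else 2, 3 markers per cell type list and the 5 most alike profiles among the brighter 50% of genes) were chosen with earlier results of these data known. The 4 differences within families, the motifs, Acsl4, Acss2, Angptl8, Clec4f, Adipoq, Gpihbp1, Ppara, Pparg and Slc27a5 were chosen after values were seen. Listed genes without a row naming them alone, Acsl1 and Acsl3 among them, were not analysed here. Alternatives were array centring, quantile normalization, offsets of 16 and 64, the brighter 50% of genes, all rows, the mean of a gene's rows, another prior variance, array weights, an equal-variance test, a replicate block, and leaving out each mouse.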

Additional observations from a re-analysis of the deposited data

Results flagged for a closer look

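Among 76 groups of 4 mice for 38 genes, 9 held a mouse whose gap to the nearest other mouse took up more of the group's range than the 95% critical value of Dixon's test allows, which chance gives in about 5% of groups. Of the 9, 4 are of genes chosen after their values were seen (Acsl4, Acss2, Adipoq and Slc27a5), so that the number cannot be read against that share. In HFD replicate 1, Acsl5 was 11.63 where the remaining HFD mice had 12.46 to 12.58, Acsl4 was 9.35 against 10.17 to 10.33, Acss2 was 9.91 against 12.37 to 12.78, Fabp5 was 5.40 against 9.06 to 9.69 and Adipoq was 4.72 against 5.44 to 5.5. In HFD replicate 2, Cd36 was 11.39 against 11.92 to 11.99. In HFD replicate 3, Adig was 2.70 against 6.16 to 6.64 and Slc27a5 was 12.80 against 12.44 to 12.47. In HFD+WBM replicate 1, Rxra was 11.20 against 11.46 to 11.51.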

How the results depend on the processing

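Fabp2, Fabp4 and Lpl stayed lower at p under 0.05 before adjustment in limma in 19, 18 and 19 alternatives, Fabp4 lying outside the brighter 50% of genes. The number of the 8 genes lower was 5 with an offset of 64 and 5 with a prior variance dependent on signal level, both adding Cd36 and Acsl5, and 3 to 4 without single mice. Those separated as lower were 1 in the brighter 50%, and 2 to 4 without single mice, where 0 to 1 was separated as higher. Past the study's thresholds were 3 at 1.5-fold and 0 to 1 without single mice. Of the other genes, those lower were 5 with an offset of 16, 9 with an offset of 64, 9 with the other prior variance and 2 to 6 without single mice, and those higher were 5 with quantile normalization, 6 with an offset of 64, 6 in the brighter 50%, 7 with the other prior variance, 4 with array weights, 4 with the equal-variance test and 1 to 7 without single mice. Macrophage markers lower were 9 to 13 and endothelial ones 1 to 4 without single mice. The cause of these shifts was not tested.

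Leaving out single mice moved Fabp1 between -0.08 and 0.06, Adig between -0.20 (no HFD replicate 3) and 1.12, Adipoq between -0.07 (no HFD+WBM replicate 3) and 0.34, Pparg between -0.28 and 0.08, and Fabp4 minus Fabp2 between -0.13 and 0.19, so that each turned its sign. Signs also turned for Fabp1 with array weights (0.04) and for Fabp4 minus Fabp2 with quantile normalization (-0.02). Over all genes, limma called none after adjustment, where 2341 had p under 0.05 before it, against 139 with the other prior variance, 80 with an offset of 64, 19 in the brighter 50%, 2 with an offset of 16 and 1 without HFD+WBM replicate 2.

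Same-numbered mice of both diets did not deviate together (correlations of -0.12 to -0.02), and 0 of 8 arrays correlated best with its own number. No pairing by number was thus seen, which so few arrays cannot exclude. The sample titles do not say whether the numbers follow the pair feeding. With the replicate number as a block, 3 of the 8 genes were lower, each of Fabp2, Fabp4 and Lpl passing p under 0.05 before adjustment in limma (adjusted p = 0.56), and 1 endothelial marker was lower.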
